A study of Homo sapiens with 12 samples.

Results

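Coactivators and corepressors of nuclear receptors were followed at the mRNA level in LNCaP cells, an established human prostate cancer line that depends on androgen for growth. The set was given as 9 gene symbols, NCOA1, NCOA2, NCOA3, NCOA4, NCOR1, EP300, CREBBP, MED1 and KDM1A, and its members were the rows of the count tables whose Ensembl identifier is paired with these symbols, 9 of 63677 gene identifiers in all. Counts were present for 8 of them. The identifier paired with NCOA4 (ENSG00000266412) was at 0 in all 12 libraries, which says nothing about NCOA4 mRNA because reads of this gene could have been counted under an identifier that the reference tables leave without a symbol. NCOA4 is therefore given no value.

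The control line was the vector control of a TALEN experiment, and the knockout line (Bag-1L KO) was made by transient expression of a TALEN, an engineered nuclease, directed at the CTG start codon of Bag-1L, the longest protein made from the BAG1 gene, while the shorter Bag-1 proteins keep their own start codons. KO cells were grown from single clones, so 1 KO line stands for the genotype, and a clonal difference and the loss of Bag-1L cannot be told apart. Each line was grown in full medium with fetal bovine serum (FM), or was starved of hormone for 72 h in charcoal-treated serum and then given ethanol, the vehicle (EtOH), or 10 nM dihydrotestosterone (DHT), the potent androgen, for 16 h. Every one of the 6 groups had 2 libraries of poly(A) RNA. The labels number them 1 and 2 without saying whether they came from separate cultures, so p-values measure the spread between these libraries, which may be technical.

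Positions are given on GRCh37. NCOA1 (ENSG00000084676) is at chr2:24714123-24993571 on the plus strand, NCOA2 (ENSG00000140396) on chromosome 8, minus strand, and NCOA3 (ENSG00000124151) at chr20:46130631-46285621, plus strand. EP300 (ENSG00000100393) is at chr22:41488596-41576081 on the plus strand and CREBBP (ENSG00000005339) at chr16:3775055-3930714 on the minus strand. MED1 (ENSG00000125686) at chr17:37560538-37607525 and NCOR1 (ENSG00000141027) at chr17:15932379-16121499 are both on the minus strand of chromosome 17, and KDM1A (ENSG00000004487) is at chr1:23345936-23410182, plus strand. Their canonical transcripts are long, between 7381 bases for NCOA1 and 10790 for CREBBP, with the exception of KDM1A at 3085 bases. Genes on the opposite strand share 8.76% of the exon bases of MED1 and 5.44% of those of NCOR1 (PIGL and TTC19 among them), and whether the counting used strand is not given in the sources used here. Of the 50-base words in a member's transcripts, at most 1.04% (NCOR1) occur in transcripts of another gene.

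A hormone-bound nuclear receptor regulates transcription through coregulators that it recruits to chromatin. NCOA1, NCOA2 and NCOA3 are the p160 coactivators, which dock on the activated receptor and bring in the acetyltransferases EP300 (p300) and CREBBP (CBP), and MED1 is the subunit through which nuclear receptors contact the Mediator complex and RNA polymerase. NCOR1 is a corepressor that carries a histone deacetylase to receptors, and KDM1A (LSD1) removes methyl groups from histone H3 and acts in prostate cells both as a corepressor and in activation. NCOA4 is a coactivator and the cargo receptor for ferritin breakdown.

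The promoters of the 3 members that changed in any comparison, NCOR1, MED1 and KDM1A, are shown because the comparisons below turn on androgen and serum, and a reader may want to look for the letters of androgen response elements. RefSeq windows (GRCh38.p14) were found for 8 of the 9 members, none for NCOA2, and the 250 bases before the first annotated start are printed 5′ to 3′ on the gene's strand. Capitals mark matches, on either strand, to CCGGAAG (the ETS core), CCAAT (the CAAT box), GGGCGG (the GC box), TATAAA (the TATA box), CACGTG (the E-box) or AGAACA (the unit of which androgen response elements hold a pair). NCOR1 is at chr17:16215535-16215784, MED1 at chr17:39451264-39451513, both minus strand, and KDM1A at chr1:23019218-23019467, plus strand.
NCOR1: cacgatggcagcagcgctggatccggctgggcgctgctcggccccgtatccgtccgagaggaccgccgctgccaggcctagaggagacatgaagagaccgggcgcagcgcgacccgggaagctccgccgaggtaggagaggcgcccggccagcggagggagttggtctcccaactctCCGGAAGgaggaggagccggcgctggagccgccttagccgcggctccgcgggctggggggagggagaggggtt
MED1: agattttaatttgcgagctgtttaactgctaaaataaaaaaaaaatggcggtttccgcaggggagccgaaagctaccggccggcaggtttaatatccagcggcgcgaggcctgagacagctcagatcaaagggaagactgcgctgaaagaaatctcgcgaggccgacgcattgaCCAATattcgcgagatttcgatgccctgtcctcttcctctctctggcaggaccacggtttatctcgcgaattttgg
KDM1A: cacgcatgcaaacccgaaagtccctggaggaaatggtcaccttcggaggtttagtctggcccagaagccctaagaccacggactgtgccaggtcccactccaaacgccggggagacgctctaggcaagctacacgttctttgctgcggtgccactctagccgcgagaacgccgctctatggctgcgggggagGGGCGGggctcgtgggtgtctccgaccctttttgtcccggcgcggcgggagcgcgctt

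Each of these windows held 1 match of the kinds searched. NCOR1 has the ETS core 73 bases before its start, a motif held by 8.52% of all 35116 RefSeq windows of this length, MED1 has a CAAT box at 76 bases (32.0% of windows) and KDM1A a GC box at 58 bases (42.6% of windows). AGAACA, held by 12.4% of all windows, was in 1 of the 13 windows of the members, a second start of CREBBP. The full element, AGAACA and TGTTCT with 3 bases between them, was in none of the 13 and in 1 of 35116 windows overall. A match is a run of letters and no site, and its absence from this window says nothing about binding of any factor.

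Gene counts totalled between 20826843 and 30354666 per library, and a member's own counts between 662 and 10327. BAG1 mRNA was lower in every KO library (1075.5 to 1576 normalized counts) than in every control library (1701.5 to 2703). It counts all Bag-1 forms and does not show the loss of Bag-1L itself. The luminal prostate markers reported, among them KLK3, KLK2 and HOXB13, were at 141 CPM (counts scaled to a common library total) or more in every library, while the basal markers KRT5, KRT14 and TP63 were at 1.25 or less. Of the 4 fibroblast markers COL1A1 was at 15.2 to 38.5 CPM and the others at 0.39 or less. The blood markers PTPRC, CD68 and HBB had at most 3 counts. Genes on the same strand share 81.6% of the exon bases of CD68, and reads over several genes are not counted. Its low count therefore says little about its mRNA. PECAM1, on the same list, was given no value.

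Replicates differed in a way that followed transcript length, most in the starved groups of the control line. Over 11172 genes averaging 100 normalized counts or more, with an annotated canonical transcript, the median log2 difference between replicate 2 and replicate 1 of control EtOH fell from 0.33 for transcripts under 2000 bases to -0.34 for those of 7000 bases or more, that of control DHT from 0.19 to -0.19 and that of KO DHT from 0.12 to -0.14. The 7 long members moved the same way and further, with differences of -0.88 to -0.50 in control EtOH and -0.76 to -0.45 in control DHT. KDM1A with its short transcript differed by 0.14 and 0.15. In the FM groups the long members differed by -0.23 to 0.16. Values are therefore also given without the 2 starved control libraries numbered 2 and with an offset for the length trend of each library, both chosen after the trend had been seen. The offset removed only part of the replicate difference of the long members. With it, replicates 1 and 2 of control EtOH stood at 4828 and 3596 for NCOR1, and at 1919 and 1305 for EP300.

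**Figure D1:**
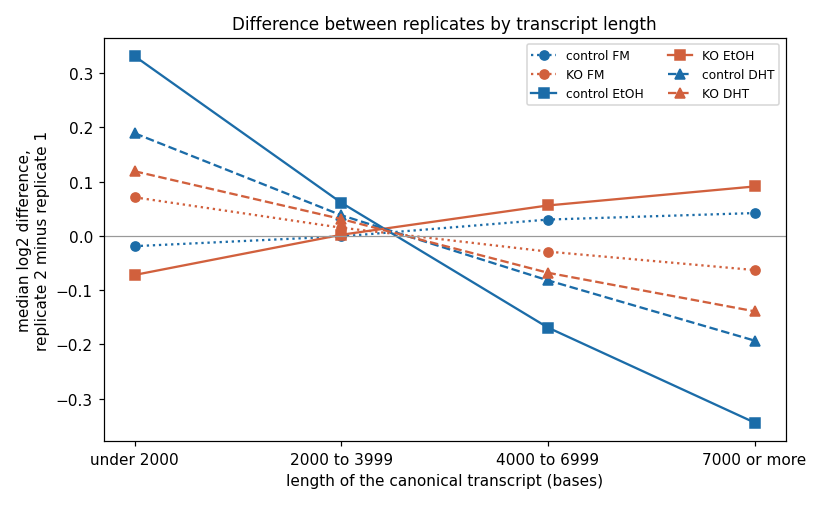
Median log2 difference in normalized count between the replicates of each group (vertical axis) in 4 classes of canonical transcript length in bases (horizontal axis), control groups in blue and KO groups in orange. The line for control EtOH runs from 0.33 to -0.34, that for control DHT from 0.19 to -0.19, that for KO DHT from 0.12 to -0.14, and those for both FM groups stay between -0.06 and 0.07.

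Among the coregulators, NCOR1 changed most across the 6 groups. Its highest group mean was 3.34 times its lowest, against 1.20 to 1.69 times in the other 7. Levels between genes were compared as normalized count per kilobase of canonical transcript, averaged over the 6 groups. KDM1A stood highest at 1131, followed by NCOR1 at 512, NCOA1 at 311, MED1 at 278, EP300 at 219, CREBBP at 201, NCOA2 at 121 and NCOA3 at 117. The place of KDM1A depended on the transcript chosen: per kilobase of all annotated exons it was 191, below NCOR1 (351), MED1 (263) and NCOA1 (255).

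**Figure D2:**
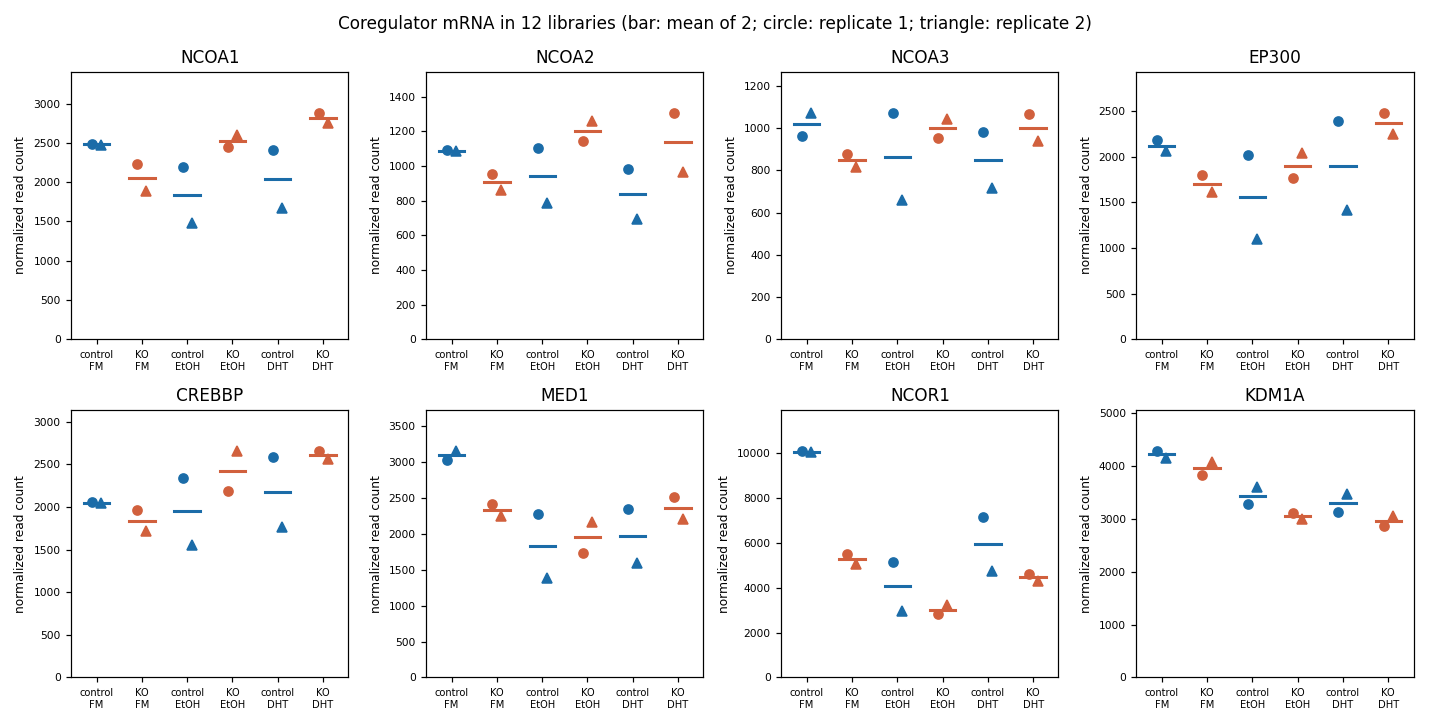
Normalized read counts of the 8 counted coregulators (vertical axes, from 0) in the 6 groups (horizontal axes), with circles for replicate 1, triangles for replicate 2, bars for the mean of 2, control in blue and KO in orange. NCOR1 is at 10045 and 10104 in control FM and at most 7165 elsewhere, and in the starved control groups the triangles of all genes but KDM1A lie below the circles.

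How many coregulators passed, at a DESeq2 adjusted p of at most 0.05, is read against the share of all tested genes that did. For FM against EtOH, 3 of 8 members passed in control, all higher, where 34.9% of genes passed and 18.8% passed higher. In KO 2 of 8 passed, both higher, where 31.7% of genes passed and 17.3% passed higher. For KO against control in FM 1 of 8 passed, lower, with 18.5% of genes passing and 9.24% passing lower. For DHT against EtOH 1 of 8 passed in control, higher (19.9% of genes, 11.2% higher), and 0 in KO (13.6%). In KO against control 0 passed in EtOH (9.81% of genes) and 0 in DHT (16.4%). The members thus passed at about the share of other genes or below it. With a change of at least 1.5-fold as well, 2 passed for FM in control (21.3% of genes), 1 for FM in KO (19.3%) and 1 for KO in FM (8.01%). In the other comparisons 0 passed both, with 11.4% of genes for DHT in control, 7.68% for DHT in KO, 5.11% for KO in EtOH and 7.98% for KO in DHT.

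Replicates of the groups compared were also set side by side for overlap. For FM against EtOH in control 5 members stood higher in both FM libraries (33.5% of genes), and in KO 3 stood higher (37.3%) and 4 lower (36.8%). With DHT 4 stood higher in KO (28.4%), and in control 0 stood higher (24.6%) and 0 lower (25.0%). KO libraries stood above control libraries for 2 members in EtOH (23.4%) and 1 in DHT (26.8%), and below them for 8 in FM (38.6%), 2 in DHT (30.7%) and 1 in EtOH (23.5%).

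The responses of the coregulators to DHT or FM did not differ between the lines past the threshold. The difference in DHT response passed for 0 of 8 members, with 0.438% of 13478 genes passing (0.408% at 1.5-fold), and the difference in FM response for 0 of 8, with 1.53% of 12971 genes passing (1.39% at 1.5-fold). At an unadjusted p under 0.05 these counts were 0 (4.3% of genes) and 2 (NCOA1 and NCOA2, 15.7% of genes), and edgeR's quasi-likelihood test also gave 0 and 0 at its adjusted p. For the counts of 0 above, the unadjusted counts were 1 for DHT in KO (NCOR1, 22.3% of genes), 2 for KO in EtOH (NCOA1 and NCOR1, 20.3%) and 2 for KO in DHT (NCOA1 and NCOA2, 28.2%), and edgeR gave 0 in each.

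**Figure D3:**
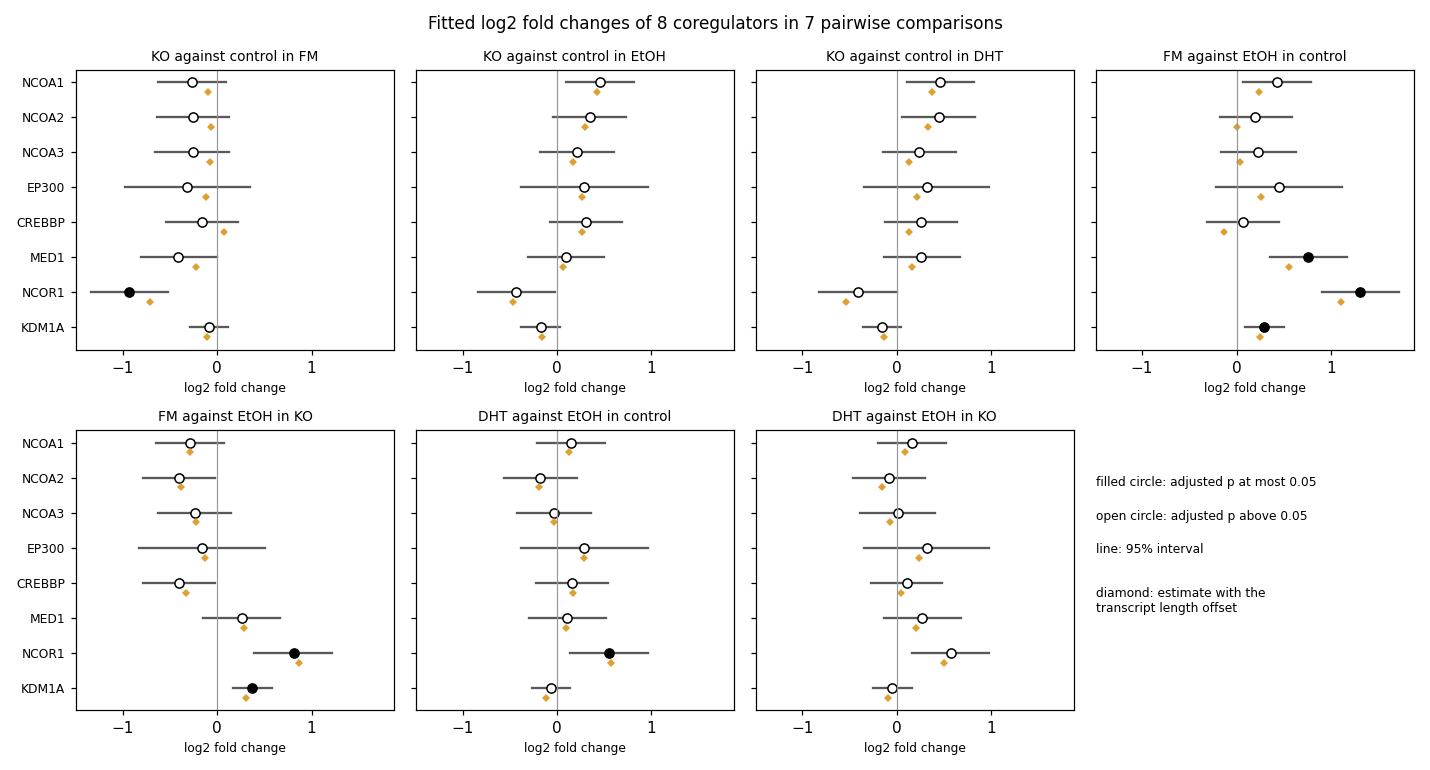
Log2 fold changes (horizontal axes) of the 8 coregulators (vertical axes) in 7 comparisons between pairs of groups, with 95% intervals as lines, filled circles for an adjusted p of at most 0.05, and diamonds for the estimates with the transcript length offset. NCOR1 is filled in 4 of the panels, KDM1A in the 2 FM panels and MED1 in FM against EtOH in control.

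NCOR1, the corepressor, was higher in full medium than in EtOH in each line, and in full medium it was lower in KO than in control. Control libraries held 10104 and 10045 normalized counts with FM, 5149 and 2982 with EtOH, and 7165 and 4727 with DHT. KO libraries held 5501 and 5064, 2824 and 3213, and 4630.2 and 4317, in the same order of media. Both control FM libraries stood above all others, and the lowest library was KO EtOH replicate 1. In the order of group means, control FM did not overlap with control DHT, and KO FM did not overlap with KO DHT, while control DHT and KO FM, KO DHT and control EtOH, and control EtOH and KO EtOH overlapped.

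In control cells NCOR1 rose from 4066 ± 1532 in EtOH to 10074 ± 41.5 in FM (SD, n = 2), or by 1.31 as a log2 fold change (standard error, SE, 0.21, DESeq2 adjusted p = 7.26e-09). In KO it rose from 3018 ± 275 to 5282 ± 309 (SD, n = 2), by 0.81 (SE 0.21, DESeq2 adjusted p = 0.000741). The gain in KO minus that in control was -0.50, with a 95% interval from -1.08 to 0.08, and did not pass (DESeq2 adjusted p = 0.4). Genes of 7000 bases or more had a median FM change of 0.26 in control and -0.02 in KO. With the length offset the rises of NCOR1 were 1.11 and 0.87, and both calls were kept in every alternative run.

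In FM, NCOR1 was lower in KO than in control with a log2 value of -0.93 (SE 0.21, DESeq2 adjusted p = 0.00026), to 0.52 of the control level (95% interval 0.39 to 0.70). It passed in all 11 alternatives, between -0.99 and -0.71, the last with the length offset. Genes of 7000 bases or more had a median of -0.24 in this comparison. In the starved states the difference had the same sign, -0.43 in EtOH (95% interval -0.84 to -0.02, DESeq2 adjusted p = 0.219) and -0.41 in DHT (-0.82 to 0.00, DESeq2 adjusted p = 0.179), and did not pass. There 1 control library decided the value. Without control EtOH replicate 2 the EtOH difference was -0.77 (DESeq2 adjusted p = 0.0234), and without control EtOH replicate 1 it was 0.02. Without control DHT replicate 2 the DHT difference was -0.68 (DESeq2 adjusted p = 0.0366), and without control DHT replicate 1 it was -0.08. With the length offset both passed, at -0.47 (DESeq2 adjusted p = 0.0037) and -0.54 (DESeq2 adjusted p = 0.000373).

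The response of NCOR1 to DHT was of like size in the lines and lay at the threshold in each. In control it was 0.55 (SE 0.21, DESeq2 adjusted p = 0.0466), with replicate values that overlapped, and in KO 0.57 (SE 0.21, DESeq2 adjusted p = 0.0513), with replicate values that did not. Their difference was 0.02, with a 95% interval from -0.56 to 0.60, which leaves room for a sizeable difference in either direction. The control call was lost without control EtOH replicate 2 (0.21) and without control DHT replicate 1 (0.22), and over all its alternatives the adjusted p ran from 9.42e-05 to 0.627. With the length offset the DHT changes were 0.57 in control and 0.50 in KO, and both passed.

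Ratios between members within a library were then taken, since the members share its depth and, among genes of like length, its length trend. CREBBP, whose transcript of 10790 bases is closest to the 10705 of NCOR1, served as one divisor, chosen with the values known. The ratio of NCOR1 to CREBBP, per kilobase, was 4.94 and 4.96 in control against 2.83 and 2.97 in KO with FM. With EtOH the values were 2.22 and 1.93 against 1.30 and 1.22, and with DHT 2.79 and 2.71 against 1.76 and 1.70. So the ratio was lower in KO than in control in each of the 3 culture states, and higher with DHT than with EtOH in each line, with no overlap between replicates. The control starved libraries, far apart in NCOR1 itself, were close in this ratio. With 2 libraries a group the smallest two-sided p of an exact permutation test is 0.333, so none is given, and a ratio does not say which of its genes moved.

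**Figure D4:**
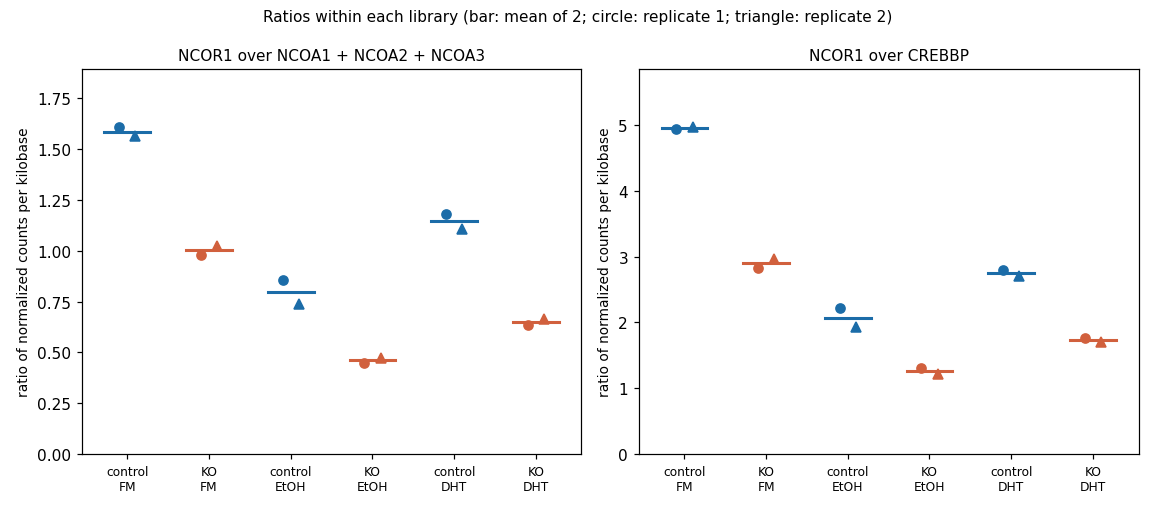
NCOR1 divided by the sum of the 3 p160 coactivators (left) and by CREBBP (right), as ratios of normalized counts per kilobase of canonical transcript (vertical axes, from 0), in each library of the 6 groups (horizontal axes), with circles for replicate 1, triangles for replicate 2 and bars for the mean of 2. In each medium both KO points lie below both control points, as with the ratio to CREBBP in FM of 2.83 and 2.97 in KO and 4.94 and 4.96 in control.

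Against the summed p160 coactivators, NCOR1 stood with FM at 1.59 ± 0.028 in control and 1.002 ± 0.033 in KO (SD, n = 2). With EtOH the ratio was 0.797 ± 0.082 in control and 0.462 ± 0.018 in KO, and with DHT 1.15 ± 0.052 and 0.651 ± 0.021 (SD, n = 2). Corepressor mRNA thus outweighed the p160 mRNAs per kilobase of canonical transcript in control FM and control DHT. It was below them in both EtOH groups and in KO DHT. The side of 1 depended on the transcript chosen. Per kilobase of all annotated exons, NCOR1 was at 381 in control DHT. NCOA1, NCOA2 and NCOA3 were at 227, 83.5 and 101 there, more in sum than NCOR1. With canonical transcripts, replicates of KO FM lay on either side of 1, at 0.979 and 1.03. With all annotated exons, the KO FM mean of NCOR1 was 338, below the sum of NCOA1, NCOA2 and NCOA3 at 229, 90.6 and 101.

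Genes around NCOR1 on chromosome 17 were looked at after its values had been seen. Of 11 genes within 500 kb of it that averaged 100 normalized counts or more, 0 passed for KO against control in FM, with log2 fold changes from -0.19 to 0.37 and a median of -0.02. PIGL and TTC19, which overlap NCOR1 on the other strand, were at 0.02 and -0.03 there. With FM against EtOH, PIGL rose by 0.71 in control (DESeq2 adjusted p = 0.000272) and was at 0.36 in KO (DESeq2 adjusted p = 0.0945), while TTC19 fell by 0.39 and by 0.30. The part of opposite-strand reads in these values was not tested.

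KDM1A, the histone demethylase, was also highest in full medium, by a small step. Control libraries held 4288 and 4155 normalized counts with FM, 3276 and 3608 with EtOH, and 3129 and 3475 with DHT. Those of KO held 3838 and 4085, 3108 and 3002, and 2859 and 3059.8. Both FM groups stood above all starved libraries. The rise from EtOH to FM was 0.29 on the log2 scale in control (SE 0.10, DESeq2 adjusted p = 0.016) and 0.37 in KO (SE 0.10, DESeq2 adjusted p = 0.00169), and the difference between the lines was 0.08 (95% interval -0.21 to 0.37). Its changes with DHT were -0.06 (95% interval -0.26 to 0.14) in control and -0.05 (-0.25 to 0.16) in KO, that is, folds between 0.83 and 1.12 at the ends of the intervals. KO libraries were below control libraries in all media, without overlap, by -0.09 in FM, -0.17 with EtOH and -0.16 with DHT, none of which passed. The FM call in control was lost without either control FM replicate (adjusted p = 0.135 and 0.0887 with DESeq2), without control EtOH replicate 1, and with the control FM and EtOH libraries fitted alone. That in KO was lost without KO FM replicate 2 or KO EtOH replicate 2.

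MED1, the receptor-binding Mediator subunit, followed NCOR1 more closely than any other member did, with a Pearson correlation of log2 values of 0.81 over the 12 libraries, which share depth and length trend. The control line had 3037 and 3158 normalized counts with FM, 2276 and 1383 with EtOH, and 2344 and 1602 with DHT. The KO line had 2425 and 2252, 1742 and 2171, and 2522 and 2212. Control FM stood above all other groups, which overlapped with their neighbours in the order of means. In control MED1 rose in FM by 0.76 (SE 0.21, DESeq2 adjusted p = 0.00131), or by 0.56 with the length offset. Without control EtOH replicate 2 the rise was 0.45 and did not pass (DESeq2 adjusted p = 0.185). In KO the change was 0.26 (95% interval -0.15 to 0.66) and did not pass, and the difference between the lines was -0.50 (-1.08 to 0.07). KO against control in FM gave -0.41 (-0.81 to 0.00, DESeq2 adjusted p = 0.16). The changes of MED1 with DHT were 0.11 in control and 0.27 in KO.

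The acetyltransferases EP300 and CREBBP passed in no comparison. For EP300 the control line had 2178 and 2064 normalized counts with FM, 2013 and 1096 with EtOH, and 2392 and 1413 with DHT, and the KO line 1798 and 1608, 1762 and 2042, and 2482 and 2253. For CREBBP the values in that order were 2061 and 2039.7, 2342 and 1556, and 2586 and 1761 in control, and 1959 and 1719.7, 2187 and 2653, and 2656 and 2556 in KO. The spread of these genes lay in the starved control groups, where replicate 2 minus replicate 1 was -0.88 and -0.76 for EP300 and -0.59 and -0.55 for CREBBP on the log2 scale. The SE of EP300 was 0.34 in each of the 7 comparisons between groups, the widest of the members. Its DHT changes were 0.29 in control (95% interval -0.38 to 0.96) and 0.32 in KO (-0.35 to 0.98), and KO libraries with DHT stood above those with EtOH without overlap. CREBBP changed with DHT by 0.16 (-0.22 to 0.54) and 0.11 (-0.27 to 0.48). From EtOH to FM, CREBBP gave 0.07 in control and -0.40 in KO (95% interval -0.78 to -0.02, DESeq2 adjusted p = 0.107). That KO value passed with the length offset, at -0.33 (DESeq2 adjusted p = 0.0202). The ratio of EP300 to CREBBP per kilobase stayed between 0.866 and 1.30 in the 12 libraries.

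The p160 coactivators NCOA1, NCOA2 and NCOA3 passed in no comparison either. Their relative shares were nearly the same throughout: of the summed p160 count per kilobase, NCOA1 made up 52.8% to 61.6%, NCOA2 19.0% to 24.7% and NCOA3 19.5% to 23.9% in the 12 libraries. For NCOA1 the control line had 2488 and 2475 normalized counts with FM, 2189.7 and 1484 with EtOH, and 2412 and 1672 with DHT. The KO line had 2225 and 1892, 2447 and 2595, and 2885 and 2750.0. It was the p160 gene with the largest values between the lines. In the starved states its KO libraries stood above the control libraries without overlap, with log2 fold changes of 0.46 in EtOH (95% interval 0.10 to 0.82, DESeq2 adjusted p = 0.101) and 0.46 in DHT (0.11 to 0.82, DESeq2 adjusted p = 0.0636). Both passed with the length offset, at 0.42 (DESeq2 adjusted p = 0.00657) and 0.37 (DESeq2 adjusted p = 0.0148). Without control EtOH replicate 2 the EtOH value was 0.20, and without control DHT replicate 2 the DHT value was 0.22.

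From EtOH to FM, NCOA1 gave 0.43 in control (95% interval 0.07 to 0.79, DESeq2 adjusted p = 0.0519) and -0.29 in KO (-0.65 to 0.07, DESeq2 adjusted p = 0.237). The difference between the lines was -0.73 (-1.23 to -0.22, DESeq2 adjusted p = 0.133), the largest of any member. It passed without control EtOH replicate 1 (-1.03), with both control starved libraries numbered 2 left out (-0.47, DESeq2 adjusted p = 0.047) and with the replicate block (-0.76), and did not with the length offset (-0.52, DESeq2 adjusted p = 0.0725). Genes of 7000 bases or more had a median difference of -0.28 in this contrast. NCOA1 changed with DHT by 0.15 in control (-0.21 to 0.51) and 0.16 in KO (-0.20 to 0.52).

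NCOA2 ran from 691 normalized counts in control DHT replicate 2 to 1307 in KO DHT replicate 1, with a median of 1033 over the 12 libraries, and the replicates of each group overlapped with those of its neighbour in the order of means. Its change from EtOH to FM in KO was -0.40 (95% interval -0.78 to -0.02, DESeq2 adjusted p = 0.103), with 954 and 860.4 in FM against 1142 and 1257 in EtOH, and it passed with the length offset, at -0.38 (DESeq2 adjusted p = 0.0136). NCOA3 had the smallest ratio of highest to lowest group mean among the members, 1.20, and libraries between 659 and 1073, a median of 957. Its changes with DHT were -0.03 (-0.42 to 0.36) in control and 0.01 (-0.39 to 0.40) in KO, and those of NCOA2 were -0.18 (-0.56 to 0.21) and -0.08 (-0.46 to 0.30).

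In FM the members shared a direction between the lines. All 8 had both KO libraries below both control libraries, where 38.6% of tested genes did, with a median log2 fold change of -0.27 against -0.01 over all genes tested and -0.24 over genes of 7000 bases or more. When the 4 FM libraries were fitted alone, the spread of the starved control groups did not enter for any gene. The share of all genes that passed in that fit is not reported here, so its calls are no result about the members. In that fit NCOA1 (-0.26), NCOA2 (-0.25), EP300 (-0.30) and MED1 (-0.39) passed beside NCOR1 (-0.92). With the length offset the values of the other 7 members lay between -0.22 and 0.07, that of CREBBP being above 0, and NCOR1 alone passed. In the starved states 6 of the 8 members had a log2 fold change above 0 in KO, with medians of 0.25 in EtOH and 0.26 in DHT against -0.01 and -0.02 over all genes, and NCOR1 and KDM1A were the 2 below 0. Genes of 7000 bases or more had medians of 0.05 and 0.12 there. Without control EtOH replicate 2 only 3 of the 8 members were above 0 in EtOH, with a median of -0.09, and without control DHT replicate 2 there were 5 above 0 in DHT, with a median of 0.01.

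Partners of NCOR1 in its corepressor complex were counted from a list. Of 8 partners, 1 passed higher and 3 lower for FM against EtOH in control, and 2 higher and 3 lower in KO, where 34.9% and 31.7% of all genes passed. HDAC5, a class IIa deacetylase, fell by 0.78 in control and by 0.77 in KO, and HDAC7 fell by 0.46 in control. TBL1X, a scaffold of the complex, rose by 0.32 in control and by 0.34 in KO. HDAC3, its catalytic deacetylase, rose by 0.34 in KO (DESeq2 adjusted p = 0.0295) and was at 0.30 in control (DESeq2 adjusted p = 0.0514). In KO against control in FM 1 partner passed, TBL1XR1 at -0.34 (DESeq2 adjusted p = 0.0179). These partners were named after their values had been seen.

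Of 10 partners of KDM1A in the CoREST complex, 1 passed higher and 5 lower for FM against EtOH in KO, and 0 higher and 1 lower in control. Of all genes, 31.7% passed in KO and 34.9% in control. The partners given here were named after their values had been seen. Those that fell in KO included RCOR2, RCOR3, PHF21A and ZMYM3, with log2 fold changes of -0.90, -0.60, -0.59 and -0.53. RCOR2 had few reads there, at 31.7 and 39.5 normalized counts in FM and 54.3 and 77.2 in EtOH (DESeq2 adjusted p = 0.0468). HMG20B, a DNA-binding subunit, rose by 0.48 in KO. RCOR1, the main scaffold, was at 0.19 in control and -0.02 in KO and passed in neither. The difference in FM response between the lines passed for 0 of the 9 partners tested.

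Other coregulators were counted from lists of histone-modifying coactivators, Mediator subunits, SWI/SNF remodelling subunits, receptor-binding cofactors and the partners above, 98 genes in all. For DHT in control 13 passed higher and 6 lower, 19.4% of those tested, and in KO 11 higher and 2 lower, 13.3%, close to the shares of all genes given above. For FM in control 15 passed higher and 11 lower (26.5%), and in KO 18 higher and 19 lower (37.8%). KO against control gave 4 higher and 3 lower in EtOH (7.29%), 5 higher and 6 lower in DHT (11.5%), and 5 higher and 10 lower in FM (15.6%). Differences in DHT or FM response passed for 0 of them.

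Among the largest changes of these coregulators with DHT, those of PIAS1, KDM4B, NCOA7 and SMARCA2 were in both lines. PIAS1, a SUMO ligase, rose by 1.14 in control and 0.79 in KO. KDM4B, a histone demethylase, rose by 0.78 and 0.90, with 1190 and 1244 normalized counts in control EtOH and 2215 and 1957 in control DHT. HEXIM1, an inhibitor of the elongation factor P-TEFb, rose by 0.92 in control, and ZMIZ1, a transcriptional cofactor, rose by 1.06 in KO. In KO HEXIM1 was also higher with DHT, at 1555 and 1758 normalized counts against 1024 and 991 with EtOH. The tests of HEXIM1 in KO and of ZMIZ1 in control are not reported here. NCOA7 fell by 0.91 and by 0.76, and SMARCA2, an ATPase of SWI/SNF, fell by 0.58 and by 0.70. SMARCD3 fell by 0.53 in control. In KO it did not pass, with 2007 and 2284 normalized counts with DHT against 2784 and 2555 with EtOH.

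Several of these coregulators also changed with full medium. In control SMARCD3 fell by 1.68, NCOA7 by 0.97 and SMARCA2 by 0.92, and PIAS1 rose by 1.38, ARID2 by 0.85 and SMARCD1 by 0.65. In KO SMARCA2 fell by 1.36, SMARCD3 by 1.23 and NCOA7 by 1.22, and MED30 rose by 0.79, PIAS1 by 0.72 and HEXIM1 by 0.65. Between the lines, ZMIZ1 was higher in KO by 1.10 in DHT and 0.61 in FM. SMARCD3 was higher in KO by 0.49 in DHT and 0.73 in FM, and CDK19, a Mediator kinase, by 0.44 in EtOH and 0.43 in DHT. In EtOH the Mediator kinase CDK8 (0.48) and PHF21A (0.38) were also higher, and SFPQ (-0.33), ACTL6A (-0.33) and SMARCD2 (-0.29) were lower. In DHT MED10 (-0.64), SFPQ (-0.47) and HEXIM1 (-0.45) were lower, and in FM KDM4B (0.50) was higher and MED13L (-0.59), KMT2C (-0.59) and SMARCC2 (-0.52) were lower.

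Patterns most like those of the members were sought among 10454 other protein-coding genes by Pearson correlation of log2 values over the 12 libraries. For NCOR1 the nearest were COA7 (0.984), PSD3 (0.981) and BAG5 (0.979). Like NCOR1 they were higher in control FM than in KO FM and both EtOH groups. Control FM held 1408, 972 and 2766 normalized counts, against 1013, 608 and 2190 in KO FM and 778, 424 and 2011 in control EtOH. Their values with DHT are not reported here. For KDM1A the nearest were HNRNPA2B1 (0.989), PPIF (0.985) and RFC4 (0.985), and for MED1 PPFIA1 (0.983), ANKRD17 (0.980) and XPO5 (0.979). For EP300 they were ZNF609, LMTK2 and CDC42BPB (0.974 to 0.983), for CREBBP MAPKBP1, KMT2E and UBR4 (0.954 to 0.966), for NCOA1 FYCO1, LMTK2 and VPS52 (0.951 to 0.965), for NCOA2 VPS13C, DSTYK and SBF2 (0.951 to 0.967), and for NCOA3 SBF2, KIF1B and MRTFB (0.960 to 0.983). Of the genes named for EP300, CREBBP and the p160 coactivators, all but VPS52 and CDC42BPB have canonical transcripts of over 7000 bases, the class that moved in the control starved libraries. Among the members, NCOA1, NCOA2, NCOA3, EP300 and CREBBP correlated with each other at 0.75 to 0.93, and NCOR1 with these 5 at 0.03 to 0.46. The libraries share their depth and the length trend, and what part these have in the correlations was not tested.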

How the data were processed

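Poly(A) RNA of 12 samples had been prepared with a stranded TruSeq kit and sequenced on an Illumina HiSeq. Per the submitters' processing notes and the study's methods, the authors used CASAVA 1.7, mapped reads to GRCh37 with TopHat2 2.0.11 and used HTSeq 0.5.3p3 to count reads in Ensembl genes. The deposited values are raw read counts per gene, without normalization. HTSeq sets aside reads with several alignments and reads over several genes, so near-identical and overlapping genes are counted low. These and its other tallies, 26.9% to 31.5% of a library, were left out of library sizes. The Ensembl release and strand setting are not given in the sources used here.

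Symbols, positions and lengths came from GENCODE 44 on GRCh37, which held 55665 of 63677 identifiers. A gene entered the fit with 10 or more reads over the 12 samples, 26156 genes. DESeq2 1.42.0 (R 4.3.3) was fitted to all 12 samples with a coefficient per group, median-of-ratios size factors, Wald tests and unshrunken log2 fold changes, and adjusted p-values run over all genes tested. "Passed" means an adjusted p of at most 0.05. The fit was tested on simulated data. "Normalized count" is the count divided by the size factor, and 95% intervals are the estimate and 1.96 standard errors either way.

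Alternatives were edgeR 4.0.16 (quasi-likelihood, TMM), TMM size factors in DESeq2, other filters on low counts, only the samples compared, the replicate block, a 1.5-fold minimum and each sample left out. Added after the data were seen were a fit without both control starved libraries numbered 2, and an offset from a smoothing spline of each library's deviations on transcript length. The members and lists were chosen with earlier results of these data known. From the other lists, up to 3 rises and 3 falls of largest size are named per comparison. They were taken from genes that passed, averaged 100 normalized counts or more and had replicates that do not overlap. The 3 genes nearest in pattern to each member are named as well. Partners of NCOR1 and KDM1A in the paragraphs on their complexes were not held to these limits. PCR duplicates were not marked, and replicate pairs differed by more than sampling noise, so each library was counted once. Values of some list genes are not reported here.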

Additional observations from a re-analysis of the deposited data

How the results depend on the processing

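Of 72 member values (8 coregulators in 9 comparisons), those of NCOR1 for FM in either line and for KO in FM passed in every alternative run. The number of coregulators that passed moved elsewhere. Except for the 1.5-fold minimum, the shares of all genes that passed in these runs are not reported here. The counts therefore show dependence on the processing and are no result about the coregulators. For DHT in control it fell from 1 to 0 with edgeR, TMM size factors, at least 10 counts in every sample, only the samples compared, the replicate block, and a 1.5-fold minimum. For DHT in KO it rose from 0 to 1 with TMM size factors, without a filter and with the length offset, and to 2 with only the samples compared. KO against control in EtOH went from 0 to 1 with the replicate block or without both control starved libraries numbered 2, and to 2 with the length offset. The same comparison in DHT went from 0 to 1 with TMM size factors, with only the samples compared and without those 2 libraries, and to 2 with the replicate block or the length offset. In FM only the samples compared gave 5 in place of 1. FM against EtOH gave 5 in place of 3 in control with the replicate block, and in KO 6 in place of 2 with only the samples compared, 4 with the length offset and 1 with the 1.5-fold minimum. The difference in FM response gave 1 in place of 0 (NCOA1) with the replicate block and without the 2 libraries.

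With each sample left out in turn the counts of coregulators ran from 0 to 4 for DHT in control, from 0 to 5 for KO in EtOH, from 0 to 4 for KO in DHT, from 2 to 6 for FM in control, from 1 to 2 for FM in KO (1 without KO FM or KO EtOH replicate 2) and from 0 to 7 for the difference in FM response. Among those with a starved control group the highest came without control EtOH replicate 1, or for KO in DHT without control DHT replicate 1. This leaves control EtOH replicate 2, or control DHT replicate 2, as the only library of its group, with a spread assumed from the others. Genes of 7000 bases or more were low in these 2 libraries, with median log2 deviations from the mean of all libraries of -0.24 and -0.18. The shares of all genes that passed with a sample left out are not reported here. The leave-out counts are therefore not read as a result about the coregulators. The sign of a coregulator value changed in 73 of 904 alternatives, in none of which the value passed on either side, and the largest such value was 0.48 in size. The labels do not say whether replicate numbers pair the samples. Replicate differences of the 15 pairs of groups correlated at -0.41 to 0.69 across genes, with a mean of 0.033 and 6 over 0.1. Control EtOH correlated with control DHT at 0.69, KO DHT at 0.56 and KO FM at 0.47, and with KO EtOH at -0.41. A shared preparation of some libraries was not tested, and the replicate block has no known design behind it.

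The standard errors of the long coregulators, with 2 libraries per group, limit what could be detected. They were 0.18 to 0.34 between pairs of groups and 0.26 to 0.48 for the differences in response. Depth was not the limit, since each member had at least 662 counts per library.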
